A study of Mus musculus with 36 samples.

Results

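The genes described here are 8 genes of fatty acid oxidation and its transcriptional control: Ppara, Cpt1a, Cpt2, Acadm, Acadl, Acot4, Cyp4a10 and Cyp4a14. They were taken by symbol from 2 deposited tables of FPKM values (fragments scaled to transcript length and to the mapped fragments of the library), each of which lists 22558 genes. All 8 symbols were found in both tables. The samples are total RNA, depleted of ribosomal RNA, from C57BL/6 mice that received PBS, dimethyloxalylglycine (DMOG) or roxadustat, with 6 libraries for each treatment and tissue label, 36 in all. DMOG is a 2-oxoglutarate analogue that inhibits 2-oxoglutarate-dependent dioxygenases, and roxadustat is a drug that inhibits the HIF prolyl hydroxylases. Both stabilise the hypoxia-inducible factors (HIF), and the series concerns such drugs in the prevention of retinopathy of prematurity. No dose, time, route or age is given in the labels, and no group carries a genetic change. Nothing says that replicates are separate animals, so each p-value speaks of the spread among libraries, which may be technical in part. By Xist and Y-linked genes each group held female and male libraries, so its libraries did not all come from the same animal. How many animals a group holds is not known.

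The tissue labels went against the transcriptomes. In the 18 libraries labelled Retina, the summed level of 7 hepatocyte markers was 21651 to 36506 FPKM and that of 7 photoreceptor markers was 1.05 to 2.60 FPKM. In the 18 libraries labelled Liver, the photoreceptor markers summed to 7813 to 13887 FPKM and the hepatocyte markers to 26.3 to 173 FPKM. The libraries labelled Retina are therefore called liver RNA and those labelled Liver are called retina RNA throughout, and treatments were compared within each table. One library stood apart: DMOG replicate 5 of the liver RNA had 8.23 FPKM of Egln3, a gene induced by HIF, against 58.0 ± 12.9 FPKM (SD, n = 5) in the other DMOG libraries, and Epo was listed at 0 in it against 21.9 ± 3.04 FPKM. Results for DMOG in liver RNA include it. Those for the 8 genes, and the total called among other pathway genes, are also given without it. Named genes of the pathway lists include it unless stated otherwise.

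PPAR alpha, the product of Ppara, is a nuclear receptor that is activated by fatty acids and binds DNA as a dimer with a retinoid X receptor. Its targets carry fatty acids through oxidation in the fasted and the suckling liver. CPT1A at the outer mitochondrial membrane joins long-chain acyl groups to carnitine, which is the rate-limiting entry step, and CPT2 at the inner membrane passes them back to coenzyme A. ACADM and ACADL, the medium-chain and long-chain acyl-CoA dehydrogenases, catalyse the first step of each round of mitochondrial beta-oxidation. ACOT4 is a peroxisomal thioesterase that releases coenzyme A from succinyl-CoA and related esters. CYP4A10 and CYP4A14 are cytochromes P450 that hydroxylate the omega end of fatty acids, and both genes are textbook PPAR alpha targets.

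The 250 bases before the annotated start were read from RefSeq (GRCm38.p6) for 6 of the 8 genes. Cyp4a10 and Cyp4a14 had no entry. The 4 genes that fell under DMOG in liver RNA are shown because their upstream sequences differ in the motifs they hold. Capitals mark matches, on either strand, to the HIF core motifs ACGTG and GCGTG, to the nuclear receptor half-site AGGTCA, and to 2 AGGTCA half-sites 1 base apart with up to 2 mismatches, the pattern called DR1 that PPAR alpha dimers bind. Ppara lies at chr15:85735526-85735775 (plus strand), Cpt1a at chr19:3323051-3323300 (plus strand), Cpt2 at chr4:107923590-107923839 (minus strand) and Acot4 at chr12:84038129-84038378 (plus strand).
Ppara: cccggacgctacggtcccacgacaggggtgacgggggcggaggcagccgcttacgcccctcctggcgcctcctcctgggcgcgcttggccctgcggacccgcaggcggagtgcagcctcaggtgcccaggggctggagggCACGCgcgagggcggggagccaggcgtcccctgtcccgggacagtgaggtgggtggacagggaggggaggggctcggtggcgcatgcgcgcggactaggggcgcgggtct
Cpt1a: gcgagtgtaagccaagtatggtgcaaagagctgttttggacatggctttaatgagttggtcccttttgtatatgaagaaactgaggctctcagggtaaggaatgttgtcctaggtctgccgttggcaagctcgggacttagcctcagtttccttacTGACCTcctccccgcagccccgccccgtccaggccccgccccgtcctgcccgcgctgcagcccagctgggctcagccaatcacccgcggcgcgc
Cpt2: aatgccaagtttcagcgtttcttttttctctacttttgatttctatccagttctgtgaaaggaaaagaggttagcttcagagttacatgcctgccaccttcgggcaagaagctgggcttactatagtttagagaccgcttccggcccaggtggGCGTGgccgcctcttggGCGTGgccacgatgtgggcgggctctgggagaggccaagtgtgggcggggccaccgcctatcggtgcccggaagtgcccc
Acot4: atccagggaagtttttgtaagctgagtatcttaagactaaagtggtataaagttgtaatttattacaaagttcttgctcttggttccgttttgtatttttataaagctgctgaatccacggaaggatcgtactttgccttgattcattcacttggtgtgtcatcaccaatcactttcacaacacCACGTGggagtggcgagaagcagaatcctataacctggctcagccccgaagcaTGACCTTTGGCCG

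In the Acot4 window the DR1-like match began 13 bases before the start, on the minus strand and with 2 mismatches, and holds an exact half-site. Matches with up to 2 mismatches occurred in 3.24% of the 32851 windows of that length in the reference table, and exact ones in 0.0335%. The Acot4 window also held ACGTG on both strands as 1 palindrome, 66 bases before the start, a motif found in 16.6% of windows. Cpt2 held GCGTG at 97 and at 80 bases before the start, and Ppara held it at 110 bases on the minus strand. GCGTG occurred in 28.2% of windows. The Cpt1a window held a single AGGTCA half-site 94 bases before the start, on the minus strand, and AGGTCA occurred in 14.0% of windows. Of the genes not shown, Acadm held GCGTG at 47 bases and a half-site at 249 bases, both on the minus strand, and none of these motifs was found in the Acadl window. These matches describe letters in a short window and are not measured binding sites.

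In PBS libraries of liver RNA the dehydrogenases, Cpt1a and Cyp4a14 were the most abundant of the 8 genes per length. Acadl had 184 ± 14.9 FPKM (SD, n = 6 for this and each following group), Acadm 181 ± 24.6 FPKM, Cpt1a 167 ± 24.2 FPKM and Cyp4a14 164 ± 32.7 FPKM, with overlapping ranges between neighbours in this order. Ppara (58.4 ± 8.92 FPKM), Cyp4a10 (57.4 ± 13.1 FPKM) and Cpt2 (50.9 ± 5.90 FPKM) formed a lower set whose ranges overlapped each other but not those of the first set. Acot4 was lowest at 16.6 ± 1.48 FPKM, below every PBS value of the other genes. A gene was tested where its 18 libraries in a table averaged 0.5 FPKM or more, which held for 8 of 8 genes in liver RNA and for 5 of 8 in retina RNA.

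In liver RNA the receptor gene, both carnitine palmitoyltransferase genes and Acot4 fell with DMOG, and neither dehydrogenase gene passed the test. Of the 8 genes, 4 were lower at an adjusted p under 0.05 and none was higher, and 5 were lower without DMOG replicate 5. Among all 12657 genes tested, 11.7% were lower and 8.26% were higher, and without DMOG replicate 5 18.1% were lower. Higher genes made up 41.4% of all called genes, and 17.8% when libraries were scaled to equal totals. All 8 estimates were below 0, with a median log2 fold change of -0.67, against a median of 0.01 over all genes tested. Fold changes are on the log2(FPKM + 0.5) scale from limma, with Benjamini-Hochberg adjustment over all genes tested in a comparison.

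Ppara had a lowest, median and highest value of 46.8, 56.4 and 69.5 FPKM in PBS libraries and of 25.7, 32.96 and 54.3 FPKM in DMOG libraries. Of the 6 DMOG libraries, 4 lay below every PBS library, while replicates 2 and 5 reached the PBS range. The log2 fold change was -0.67 ± 0.17 (SE, limma adjusted p = 0.00960, two-sided exact permutation p = 0.0152), a mean at 64.5% of that in PBS. Leaving that replicate 5 out gave -0.79 (limma adjusted p = 0.000763).

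Cpt1a ranged from 134 to 208 FPKM in PBS libraries, with a median of 166 FPKM, and from 77.4 to 162 FPKM in DMOG libraries, with a median of 98.5 FPKM. All DMOG libraries but replicate 5 lay below all PBS libraries. Its log2 fold change was -0.70 ± 0.15 (SE, limma adjusted p = 0.00348, exact permutation p = 0.00649) and -0.83 without that library (limma adjusted p = 3.36e-05). For Cpt2 the lowest, median and highest values were 41.7, 50.6 and 58.1 FPKM with PBS and 23.7, 28.1 and 57.8 FPKM with DMOG. DMOG replicate 5 was the highest DMOG library for Cpt2 as well, and the other 5, at 28.5 ± 6.02 FPKM, were all below the PBS range. The log2 fold change of Cpt2 was -0.67 ± 0.18 (SE, limma adjusted p = 0.0132, exact permutation p = 0.0195), and -0.84 without replicate 5 (limma adjusted p = 9.96e-05).

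Acot4 showed the lowest level relative to PBS of the 8 genes. PBS libraries had 14.1 to 18.6 FPKM with a median of 16.5 FPKM, and DMOG libraries 4.92 to 13.9 FPKM with a median of 5.60 FPKM. It was the one gene of the 8 whose 6 DMOG libraries all lay below the 6 PBS libraries, a pattern shown by 1.45% of all genes tested. DMOG replicate 5, at 13.9 FPKM, was just under the lowest PBS library, and the other 5 had a mean at 34.4% of the PBS mean. The log2 fold change was -1.27 ± 0.22 (SE, limma adjusted p = 0.00114), and the exact permutation p of 0.00216 was the smallest that 924 assignments can give. Without replicate 5 it was -1.47 (limma adjusted p = 3.25e-06). Acot4 has close paralogs, so its share of their reads is uncertain.

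The omega-hydroxylases varied more between libraries. Cyp4a10 had a lowest, median and highest value of 34.3, 59.5 and 69.3 FPKM with PBS and of 13.8, 26.5 and 87.8 FPKM with DMOG, so that DMOG replicate 5 was the highest of the 12 and 3 DMOG libraries were below all PBS libraries. Its log2 fold change of -0.98 ± 0.36 (SE) did not pass the threshold (limma adjusted p = 0.0636, exact permutation p = 0.0736). It passed without replicate 5, at -1.31 (limma adjusted p = 0.00203), and with libraries scaled to equal totals, at -1.08 (limma adjusted p = 0.0276). Cyp4a14 had 103 to 200 FPKM with PBS (median 169 FPKM) and 81.5 to 258 FPKM with DMOG (median 120 FPKM). DMOG replicates 2 and 5 were above every PBS library and 3 others were below all of them. The log2 fold change of -0.27 ± 0.27 (SE, limma adjusted p = 0.484) did not pass, nor did -0.46 without replicate 5 (limma adjusted p = 0.145). Cyp4a10 and Cyp4a14 have near-identical neighbours in their gene cluster, and reads may be split among them.

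Of the dehydrogenase genes, Acadm had 151 to 217 FPKM with PBS (median 175 FPKM) and 105 to 233 FPKM with DMOG (median 159 FPKM). Its log2 fold change was -0.14, with a 95% confidence interval of -0.50 to 0.22 (limma adjusted p = 0.571). Without DMOG replicate 5 it was -0.25 (limma adjusted p = 0.247). Acadl had 164 to 206 FPKM with PBS (median 181 FPKM) and 154 to 199 FPKM with DMOG (median 187 FPKM). Its log2 fold change was -0.03, with a 95% confidence interval of -0.22 to 0.15 (limma adjusted p = 0.816), and -0.06 without DMOG replicate 5 (limma adjusted p = 0.624). DMOG libraries lay on both sides of the PBS range for Acadm, with 3 below and 2 above it, and for Acadl 2 lay below it and 4 within it. The Acadl interval is the narrowest of the 8.

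**Figure D1:**
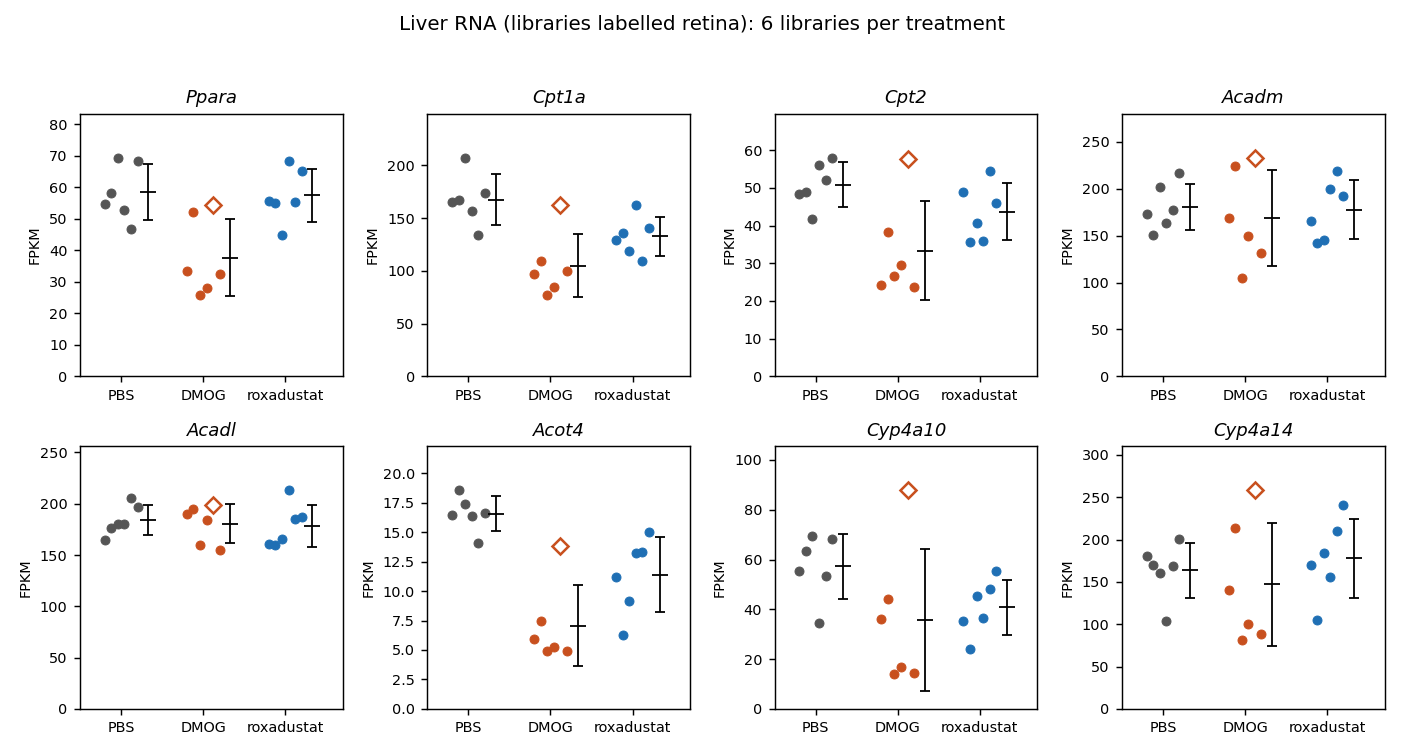
Level of each of the 8 genes in liver RNA (libraries labelled retina), with FPKM from 0 on the vertical axis and the treatment on the horizontal axis. Points are libraries, the open diamond is DMOG replicate 5, and the bar beside each group is the mean ± SD of its 6 libraries; for Acot4 every DMOG point lies below every PBS point, and for Acadl the 3 groups overlap.

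Marker levels, sex and depth of the liver RNA libraries are given beside these results. Of 6 adipocyte markers, 1 exceeded 0.5 FPKM in any library, Fabp4, which is also a PPAR target, and the list summed to 49.9 to 84.5 FPKM with PBS, 70.6 to 171 FPKM with DMOG and 113 to 171 FPKM with roxadustat. Lep, a defining marker, was listed at 0 in all of them. Hepatocyte markers summed to 25602 to 32388 FPKM with PBS and 21651 to 36506 FPKM with DMOG, macrophage markers to 371 to 832 FPKM and 325 to 913 FPKM. Erythroid markers summed to 848 to 1857 FPKM with PBS, 1169 to 3207 FPKM with DMOG and 988 to 2369 FPKM with roxadustat. By Xist and Y-linked genes, 3 of 6 PBS, 4 of 6 DMOG and 1 of 6 roxadustat libraries were female. Relative depth, read from the steps between low values, was 1.04 ± 0.102 in PBS, 0.973 ± 0.141 in DMOG and 0.963 ± 0.159 in roxadustat libraries. With a term for sex, Ppara (-0.66), Cpt1a (-0.69), Cpt2 (-0.64) and Acot4 (-1.24) were still called lower under DMOG, while the part of the other values in these results was not tested. In bulk RNA, fewer cells of a type and less RNA per cell cannot be told apart.

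The wider pathway was followed in 9 lists that hold 124 genes, of which 116 are other than the 8 and 105 of those were tested in liver RNA. With DMOG 18 of the 105 fell (17.1%, against 11.7% of all genes) and 7 rose (6.67%, against 8.26%), and their median log2 fold change was -0.15. When DMOG replicate 5 was left out, 33 fell (31.4%, against 18.1% of all genes) and 10 rose (9.52%, against 17.3%). Scaled to equal totals 36 of the 105 fell and 4 rose, where 21.2% of all genes were lower and 4.61% higher. With the sex term 12 of the 105 fell and 5 rose, where 10.4% of all genes were lower and 7.45% higher. The share that fell was then nearer to that of all genes than it was without the sex term. Each called gene kept its sign under these settings. Calls were lost for Acsl4, Med1 and Ppard with equal totals, and for Acaa1a, Acaa1b, Acad11, Acot3, Acsl1, Mgll, Med1 and Ppard with the sex term. The counts and medians of single lists, unlike those of the 105, include any of the 8 genes that belong to the list. The members of the carnitine shuttle were lower in 4 of 6 tested cases, counting Cpt1a and Cpt2, with a list median of -0.62. Crot, the peroxisomal carnitine octanoyltransferase, went from 411 ± 67.9 to 248 ± 208 FPKM (log2 fold change -0.997, limma adjusted p = 0.0250). Without DMOG replicate 5 its log2 fold change was -1.34 (limma adjusted p = 1.14e-05). Crat, the carnitine acetyltransferase, went from 15.8 ± 1.86 to 10.9 ± 3.69 FPKM (-0.56, limma adjusted p = 0.0142), and was at -0.71 without that library (limma adjusted p = 9.12e-05).

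Peroxisomal beta-oxidation had 6 lower and 1 higher of 16 genes and a median of -0.23. Acox2, the oxidase for branched-chain and bile acid precursors, fell from 59.7 ± 6.16 to 32.8 ± 16.1 FPKM (log2 fold change -0.96, limma adjusted p = 0.00233). Amacr, which converts the stereochemistry of branched acyl-CoAs, fell by 0.64 on the log2 scale and Pecr, an enoyl-CoA reductase, by 0.45. Pex11a, a factor of peroxisome division, rose from 5.75 ± 0.571 to 11.9 ± 4.93 FPKM (0.88, limma adjusted p = 0.0111), although 1 of its DMOG libraries lay below the PBS mean. In mitochondrial beta-oxidation, a list that includes Acadm and Acadl, 1 of 19 genes was called, Acad11 (-0.46, limma adjusted p = 0.0491), and the list median was -0.15. Of those 19, 4 were lower without DMOG replicate 5, 5 with equal totals and none with the sex term.

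Among PPAR receptors and coregulators 2 fell, counting Ppara itself, and 4 rose of 13. Rxrg, a retinoid X receptor gene, was low and fell from 2.02 ± 0.424 to 0.815 ± 0.338 FPKM (log2 fold change -0.96, limma adjusted p = 0.00101), and its abundant relative Rxra rose from 63.2 ± 7.99 to 80.8 ± 10.9 FPKM (0.35, limma adjusted p = 0.0223). Ppargc1a, a coactivator of PPAR alpha, rose from 2.61 ± 0.301 to 4.65 ± 1.55 FPKM (0.68, limma adjusted p = 0.00540), and Med1, a Mediator subunit that binds nuclear receptors, rose by a log2 value of 0.27. Ppard, the gene of a related receptor, was the other one that rose (0.33).

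Of 15 genes of fatty acid uptake, binding and activation 3 fell and 1 rose. Acsl1, the main long-chain acyl-CoA synthetase gene of liver, went from 285 ± 43.1 to 205 ± 71.6 FPKM (log2 fold change -0.53, limma adjusted p = 0.0497), Acsl3 fell by 0.65 and Acsm5 by 0.38 on the log2 scale, while Acsl4, whose enzyme prefers arachidonate, rose by 0.73. Of 10 thioesterase genes 2 fell, Acot4 and its paralog Acot3 (-0.83, limma adjusted p = 0.0457), whose call was lost with the sex term, while equal totals gave 4. Of 18 other known PPAR alpha targets 4 fell and 1 rose: Creb3l3, a transcription factor of hepatic lipid metabolism, fell from 95.7 ± 13.1 to 54.2 ± 21.3 FPKM (-0.88, limma adjusted p = 0.00214), Gpd1, the cytosolic glycerol-3-phosphate dehydrogenase, from 133 ± 22.9 to 76.3 ± 34.5 FPKM (-0.88), Mlycd, whose enzyme breaks down the CPT1 inhibitor malonyl-CoA, from 37.8 ± 4.94 to 27.4 ± 8.75 FPKM (-0.50, limma adjusted p = 0.0237), and Apoa5, an apolipoprotein that affects plasma triglyceride, rose from 109 ± 28.9 to 183 ± 43.6 FPKM (0.75, limma adjusted p = 0.0236). None of 7 omega-hydroxylation genes, Cyp4a10 and Cyp4a14 among them, and none of 9 ketone body genes was called, with medians of -0.22 and 0.03. With equal totals the medians were -0.32 and -0.05, and 3 of the 7, Cyp4a10 among them, and 1 of the 9 were lower. Without DMOG replicate 5, Cyp4a10 was the only 1 of the 7 called lower, and of the 9, 2 were higher and 1 lower.

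**Figure D2:**
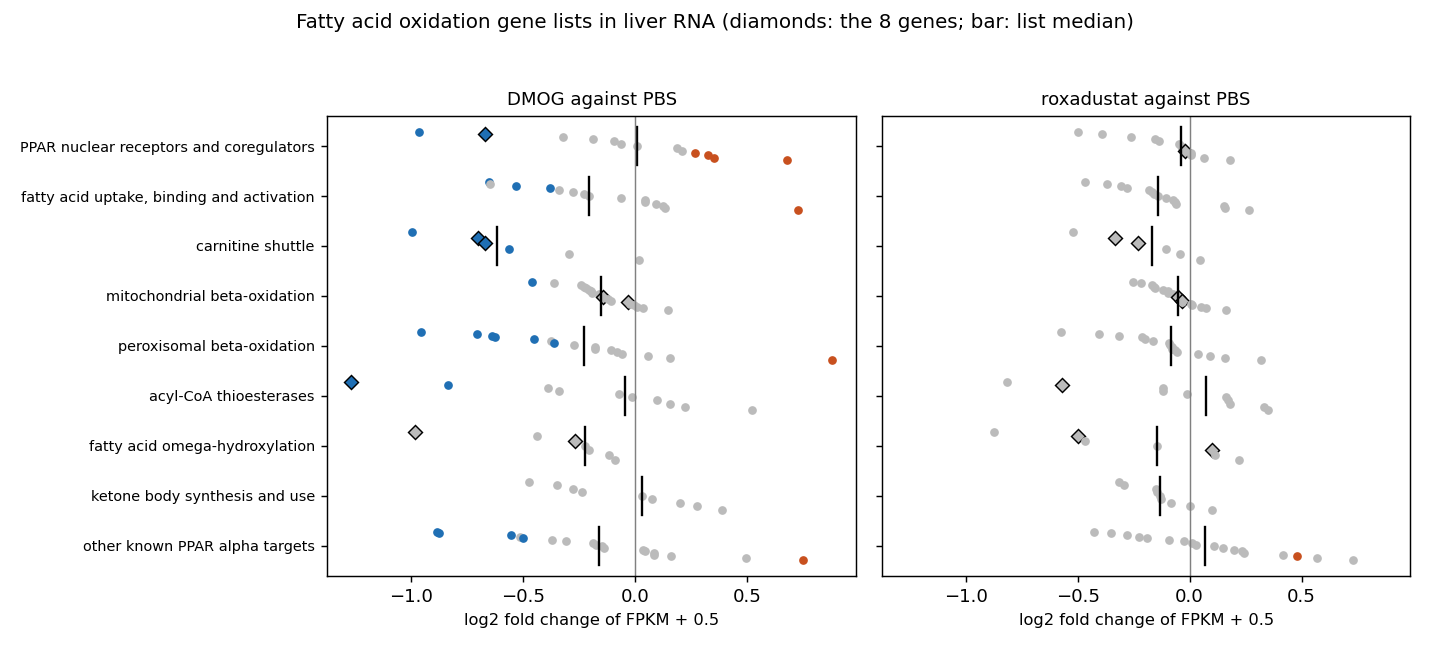
Log2 fold changes of FPKM + 0.5 (horizontal axis) in liver RNA for DMOG and for roxadustat against PBS, with 9 fatty acid oxidation lists on the vertical axis. Each point is a gene, diamonds are the 8 genes of this account, blue and orange points were called lower and higher at an adjusted p under 0.05, grey points were not called, and black bars are list medians; DMOG has 22 blue points among 113 genes and roxadustat has none.

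With roxadustat no gene of the 8 passed the test against PBS in liver RNA. By limma none was called, 2 had an unadjusted p under 0.05 (Cpt1a and Acot4), and 4.19% of all genes tested were called. Higher genes made up 51.7% of those calls, and 31.4% with equal totals. The comparison shares its PBS libraries with that of DMOG. Leaving out DMOG replicate 5, which enters here through the filter and the shared estimate of the spread, Acot4 was called lower, and 4.63% of all genes tested were lower.

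Ppara had 44.9 to 68.4 FPKM with roxadustat (median 55.5 FPKM), which covers much of the PBS range, and its log2 fold change was -0.02 with a 95% confidence interval of -0.38 to 0.33. Cpt1a had 110 to 162 FPKM (median 133 FPKM), with all 6 libraries below the PBS mean and a log2 fold change of -0.33 ± 0.15 (SE, limma adjusted p = 0.227, exact permutation p = 0.0216). Acot4 had 6.31 to 15.03 FPKM (median 12.2 FPKM), with 5 of 6 libraries below all PBS libraries and a log2 fold change of -0.57 ± 0.22 (SE, limma adjusted p = 0.149, exact permutation p = 0.00433). None of the 8 genes had every roxadustat library below every PBS library, which was the case for 2.73% of all genes tested.

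Cpt2 had 35.6 to 54.6 FPKM with roxadustat (log2 fold change -0.23, 95% confidence interval -0.60 to 0.14). Cyp4a10 had 24.03 to 55.3 FPKM (-0.50, interval -1.26 to 0.26), and Cyp4a14 105 to 241 FPKM (0.10, interval -0.46 to 0.66). The intervals of the P450 genes thus include changes as large as those estimated for DMOG. Acadm had 142 to 220 FPKM (-0.03, interval -0.39 to 0.32) and Acadl 160 to 213 FPKM (-0.05, interval -0.23 to 0.14). Of the 105 other pathway genes, limma called 1 higher and 0 lower with roxadustat, and 17 had an unadjusted p under 0.05. The called gene was Plin5, which encodes a lipid droplet protein of oxidative tissues and went from 10.9 ± 1.47 to 15.3 ± 1.004 FPKM (0.48, limma adjusted p = 0.0265). Without DMOG replicate 5, limma called 5 of them lower, 4.76% against 4.63% of all genes. Equal totals gave 1 higher and 4 lower, where 4.11% of all genes were lower, and the sex term 2 higher and 1 lower.

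Against DMOG directly, roxadustat libraries of liver RNA had more Ppara. The doses are not given, so the drugs were not matched, and their levels of Egln3 differed. Egln3 had 16.95 to 20.4 FPKM in roxadustat libraries. DMOG libraries other than replicate 5 had 46.4 to 72.5 FPKM. In liver RNA, 8 HIF-responsive genes summed to 210 to 301 FPKM with PBS and 293 to 1440 FPKM with DMOG. With roxadustat they summed to 721 to 855 FPKM. The log2 difference of Ppara was 0.65 ± 0.17 (SE, limma adjusted p = 0.0439, exact permutation p = 0.0130), and 5 of 6 roxadustat libraries lay above all DMOG libraries. It was the only 1 of the 8 genes called, where 1.86% of all genes tested were higher. The Ppara call was lost without 13 of the 18 libraries in turn, with a term for sex (limma adjusted p = 0.157) and with the groups compared fitted alone (limma adjusted p = 0.123). Without DMOG replicate 5, 4 of the 8 genes were higher with roxadustat, against 9.04% of all genes tested: Ppara by 0.77, Cpt1a by 0.50, Cpt2 by 0.61 and Acot4 by 0.90 on the log2 scale. With all 6 DMOG libraries the latter 3 differed by 0.37 (95% confidence interval 0.06 to 0.68), 0.44 (0.07 to 0.81) and 0.70 (0.24 to 1.15), with limma adjusted p-values of 0.188, 0.192 and 0.0880. Higher genes made up 62.0% of all calls in this comparison and 82.6% with equal totals, which also brought Acot4 past the threshold (limma adjusted p = 0.0492).

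**Figure D3:**
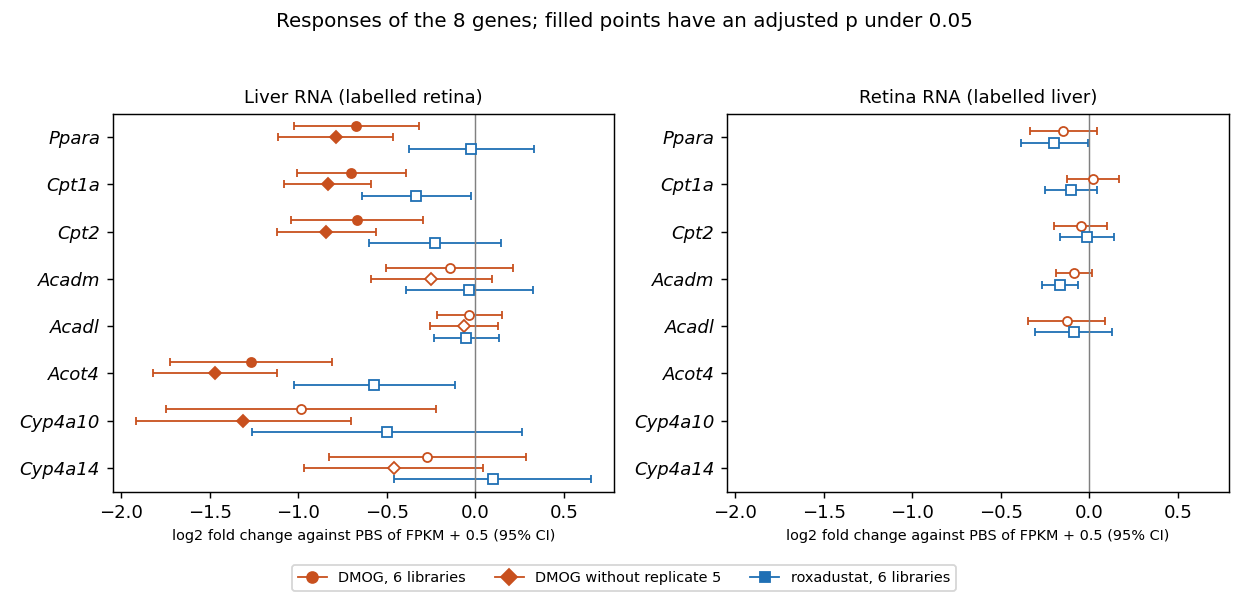
Log2 fold changes of FPKM + 0.5 against PBS with 95% confidence intervals (horizontal axis) for the 8 genes (vertical axis) in liver RNA and retina RNA. Circles are DMOG, diamonds DMOG without replicate 5 and squares roxadustat, and filled symbols had an adjusted p under 0.05; 4 circles are filled in liver RNA and none in retina RNA, where Acot4, Cyp4a10 and Cyp4a14 were below the filter.

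In retina RNA the 8 genes stood in another order, and those of peroxisomal and omega oxidation were near 0. With PBS, Cpt1a had 53.1 ± 4.90 FPKM and Acadm 43.4 ± 2.38 FPKM, with overlapping ranges, followed by Cpt2 at 13.1 ± 1.75 FPKM. Acadl (8.51 ± 1.53 FPKM) and Ppara (6.05 ± 0.854 FPKM) came next and overlapped each other. Acadl, the highest of the 8 genes in liver RNA with PBS, was thus below Cpt1a, Acadm and Cpt2 here. The tables were made separately, so levels are not compared between them. Acot4 had 0.0419 to 0.241 FPKM over the 18 libraries. Cyp4a10 was listed at 0 in 10 of the 18 libraries and reached at most 0.0809 FPKM, and Cyp4a14 was listed at 0 in 16 and reached 0.0176 FPKM.

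In retina RNA none of the 5 tested genes passed the limma test with either drug. For DMOG none of 5 was called, none had an unadjusted p under 0.05, and 1.07% of all 13779 genes tested were called. For roxadustat none was called, 2 had an unadjusted p under 0.05, and 2.34% of all genes were called. Roxadustat against DMOG gave none of 5, none at an unadjusted p under 0.05, and 1.31% of all genes. In the same libraries the summed level of 8 HIF-responsive genes was 443 to 628 FPKM with PBS, 538 to 802 FPKM with DMOG and 872 to 1262 FPKM with roxadustat.

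Acadm came closest to the threshold. It had 40.3 to 47.6 FPKM with PBS (median 42.9 FPKM), 38.8 to 44.4 FPKM with DMOG (median 40.5 FPKM) and 34.8 to 42.3 FPKM with roxadustat (median 38.8 FPKM). Roxadustat libraries lay below all PBS libraries in 5 of 6 cases, with a log2 fold change of -0.17 ± 0.05 (SE, limma adjusted p = 0.0811, exact permutation p = 0.00433). Without roxadustat replicate 6 of the retina RNA it passed the threshold (limma adjusted p = 0.0395). Ppara had 4.55 to 7.09 FPKM with PBS, 4.66 to 6.75 FPKM with DMOG and 4.78 to 5.92 FPKM with roxadustat, and its log2 fold changes were -0.15 (95% confidence interval -0.34 to 0.04) and -0.20 (-0.39 to -0.01, limma adjusted p = 0.264).

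Cpt1a and Cpt2, which fell under DMOG in liver RNA, held narrow intervals in retina RNA. Cpt1a had 45.7 to 59.4 FPKM with PBS and 48.8 to 62.9 FPKM with DMOG, a log2 fold change of 0.02 (95% confidence interval -0.13 to 0.17). Cpt2 had 11.1 to 15.5 FPKM with PBS and 12.02 to 13.4 FPKM with DMOG, a log2 fold change of -0.05 (interval -0.20 to 0.10). Acadl had 6.40 to 10.4 FPKM and 6.67 to 8.47 FPKM, with -0.13 (interval -0.35 to 0.09). With roxadustat the 3 genes had log2 fold changes of -0.11, -0.01 and -0.09, in the same order. Markers of the retinal pigment epithelium summed to 211 to 340 FPKM with PBS, 219 to 321 FPKM with DMOG and 242 to 309 FPKM with roxadustat. The 6 erythroid markers matched summed to 10.6 to 19.2 FPKM with PBS, 23.3 to 46.8 FPKM with DMOG and 12.4 to 56.6 FPKM with roxadustat, so that every DMOG library lay above every PBS library. The marker with the highest mean in each group was Hbb-b1, a beta-globin gene, with 9.40 to 16.96 FPKM, 20.7 to 32.8 FPKM and 10.7 to 32.4 FPKM, in the same order (limma adjusted p = 0.0527 for DMOG and 0.0360 for roxadustat). Relative depth was 0.880 ± 0.0257 in PBS, 1.10 ± 0.161 in DMOG and 1.09 ± 0.161 in roxadustat libraries of retina RNA. The part of these markers and of depth in the retina values was not tested.

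**Figure D4:**
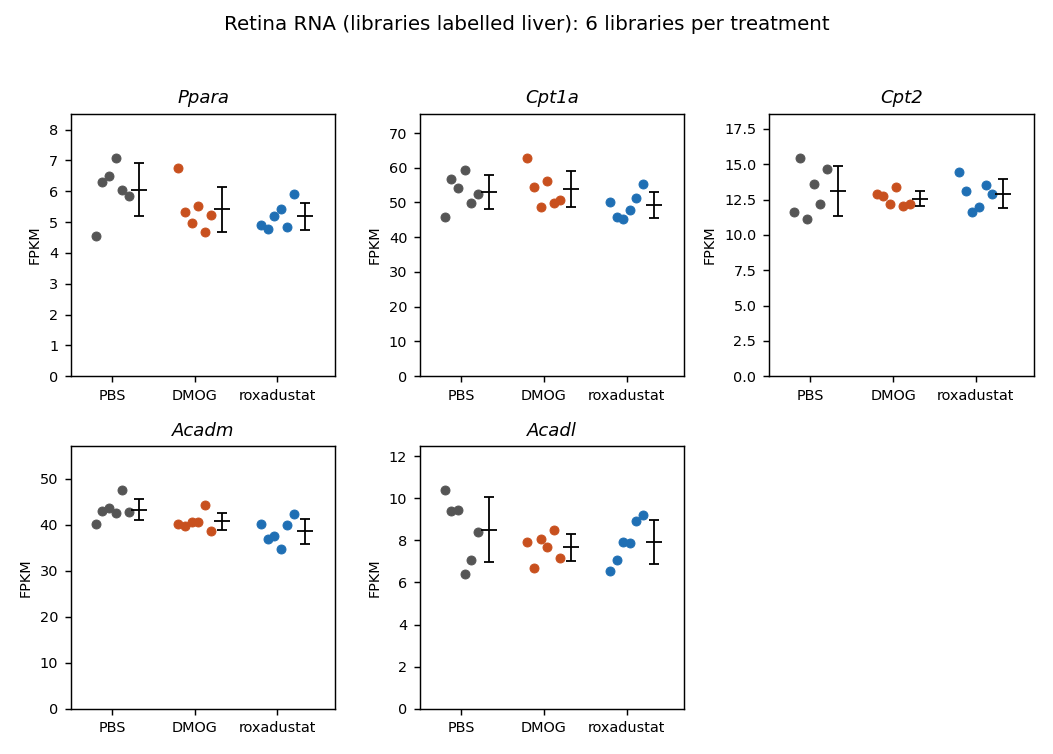
Level of the 5 genes that passed the filter in retina RNA (libraries labelled liver), with FPKM from 0 on the vertical axis and the treatment on the horizontal axis. Points are libraries and the bar beside each group is the mean ± SD of its 6 libraries; the groups overlap for all 5 genes.

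Of the 89 other pathway genes tested in retina RNA, 1 was lower and 0 were higher with DMOG, where 0.697% and 0.37% of all genes were. With roxadustat 2 were lower and 1 was higher, where 0.653% and 1.69% of all genes were. Gpd1 was the gene lower with DMOG, from 2.08 ± 0.851 to 0.748 ± 0.135 FPKM (log2 fold change -0.99, limma adjusted p = 0.00934), and it was also lower with roxadustat (-0.80, limma adjusted p = 0.0183). Acadvl, the very-long-chain acyl-CoA dehydrogenase gene, rose with roxadustat from 75.9 ± 7.27 to 98.3 ± 5.48 FPKM (0.38, limma adjusted p = 0.00372), with all 6 libraries above all PBS libraries. Lpl, the lipoprotein lipase gene, fell from 10.03 ± 1.02 to 7.91 ± 0.879 FPKM (-0.33, limma adjusted p = 0.0192).

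The responses themselves were compared between tissues for the 5 genes tested in both. By Xist and Y-linked genes, 3 of 6 PBS, 2 of 6 DMOG and 3 of 6 roxadustat libraries of retina RNA were female. In liver RNA 4 of 6 DMOG and 1 of 6 roxadustat libraries were, so these groups do not match animal for animal. With a term for sex, 2 of the 5 genes were called for DMOG, as without it. The DMOG response was lower in liver RNA than in retina RNA for Cpt1a by 0.72 ± 0.17 on the log2 scale (SE, limma adjusted p = 0.00355) and for Cpt2 by 0.62 ± 0.20 (limma adjusted p = 0.0283), where 8.91% of all 11101 genes tested in both were called lower. For Ppara the difference was -0.52 ± 0.19 (SE, limma adjusted p = 0.0602). Without DMOG replicate 5 of the liver RNA all 3 were called, Ppara at a limma adjusted p of 0.00695, against 15.5% of all genes. The Cpt2 call was lost without each of 5 libraries in turn, with limma adjusted p-values up to 0.0597: DMOG replicates 1, 3 and 6 and PBS replicate 6 of the liver RNA and PBS replicate 3 of the retina RNA. Leaving out each of 3 further libraries, DMOG replicate 2 and PBS replicate 5 of the liver RNA and PBS replicate 4 of the retina RNA, brought Ppara past the threshold. Acadm (-0.06, 95% confidence interval -0.42 to 0.31) and Acadl (0.10, interval -0.18 to 0.37) were not called. For roxadustat limma called none of 5, none had an unadjusted p under 0.05, and 2.24% of all genes were called. Higher differences made up 43.9% of all calls for DMOG (23.1% with equal totals) and 54.2% for roxadustat (42.3% with equal totals). HIF-responsive genes also rose more with DMOG in liver RNA, by 2.82 for Ankrd37, 2.33 for Egln3 and 2.00 for Bnip3. Pgk1 differed by 1.18, Slc2a1 by 1.14 and Pdk1 by 0.99 (limma adjusted p at most 0.0130 for each gene). Within retina RNA, Ankrd37 was called higher with DMOG (0.69, limma adjusted p = 0.00427). Egln3, Pdk1, Pgk1, Slc2a1 and Bnip3 were not called there. The part of this in the Cpt1a and Cpt2 differences was not tested.

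The genes whose log2 levels followed each of the 8 most closely over the 18 liver RNA libraries are given as Pearson's r, which describes these libraries and includes the shift between treatments. Ppara was followed by Slc17a1, a phosphate transporter gene (r = 0.96, and 0.93 after subtracting group means), and by Klb, the FGF21 co-receptor gene (0.95 and 0.90). For Cpt1a the closest was Mst1r (0.96), for Cpt2 Slc26a1 (0.95) and for Acot4 Slc10a5 (0.96). Without DMOG replicate 5, the values within groups for these 3 were 0.83, 0.79 and 0.75, against 0.92, 0.91 and 0.88 with it. Acadm was followed by Acaa2, the mitochondrial 3-ketoacyl-CoA thiolase gene (0.96 over all libraries and 0.97 within groups), Brp44, a mitochondrial pyruvate carrier gene (0.93 and 0.94), and Hadh, the short-chain hydroxyacyl-CoA dehydrogenase gene (0.92 and 0.93). Cyp4a14 was followed most closely by Cyp4a10 (0.88 and 0.95 within groups). Over all libraries Cyp4a10 itself was followed more closely by A2ld1 (0.92 and 0.89 within groups), Nit1 (0.92 and 0.91) and Mlycd (0.92 and 0.89). Acadl had the loosest nearest gene, Zfp763 (0.86).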

How the data were processed

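Total RNA (RNeasy, TruSeq Stranded with Ribo-Zero Gold) was sequenced. The authors deposited 1 table of FPKM values per tissue label, and the submitters' processing notes name bcl2fastq 1.8.3, TopHat2, Cuffdiff 2.2.1 and mm9. The annotation is not given in the sources used here. Depth is unknown, so no counting intervals are given. A row of totals was dropped. Groups follow the treatment labels and tissues the transcriptomes. Genes averaging 0.5 FPKM or more in a table were tested as log2(FPKM + 0.5) in limma 3.58.1 (R 4.3.3; 3 group means, empirical Bayes with mean trend, two-sided, Benjamini-Hochberg at 0.05), with differences between tissues fitted over 36 libraries and a two-sided exact permutation test per gene. The fit was tested on simulated data. The alternatives were other pseudocounts, filters, scalings and models, a replicate block, a sex term and leaving out each library; scalings and the sex term were added for the pathway lists after the data were seen. The 8 genes, the lists and the naming rule (up to 4 genes per list by adjusted p) were chosen with earlier results of these data known; Ppard, Acaa1a, Acaa1b, Mgll and Hbb-b1 were named after their values were seen. Motifs were searched in RefSeq windows of GRCm38.p6, with no coordinates of mm9 used. Figures used Python 3.11.15 and matplotlib 3.10.9.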

Additional observations from a re-analysis of the deposited data

Results flagged for a closer look

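Among 48 groups of 6 libraries examined (8 genes, 3 treatments, 2 tissues), 4 had a library far from the other 5, and chance gives about 1 such group in 20. In liver RNA, DMOG replicate 5 had 13.9 FPKM of Acot4 against 4.92 to 7.47 FPKM in the other DMOG libraries. In retina RNA, DMOG replicate 5 had 44.4 FPKM of Acadm against 38.8 to 40.7 FPKM. PBS replicate 1 of the retina RNA was the highest of its group for Acot4, at 0.241 FPKM against 0.0419 to 0.0908 FPKM, and for Cyp4a10, at 0.0809 FPKM against 0 to 0.0210 FPKM, both far below the filter.

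The response to DMOG differed between the tissues for 2 of the 5 genes tested in both. The response in liver RNA minus that in retina RNA was -0.72 on the log2 scale for Cpt1a (limma adjusted p = 0.00355) and -0.62 for Cpt2 (limma adjusted p = 0.0283). For Egln3, a gene induced by HIF, it was 2.33 (limma adjusted p = 0.000308).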

How the results depend on the processing

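Of the 4 genes called lower under DMOG in liver RNA, Ppara, Cpt1a, Cpt2 and Acot4, each stayed called under all 11 alternatives of value or model and without each of the 18 libraries in turn, with adjusted p-values (limma) of at most 0.0291, 0.0145, 0.0336 and 0.00802 under the former and 0.0279, 0.0109, 0.0366 and 0.00403 under the latter. For roxadustat against PBS in liver RNA, 1 gene (Acot4) was called with the groups compared alone and 0 to 1 when leaving out each library. For roxadustat against DMOG, where 1 was called, no filter, the replicate block, the sex term and the groups compared alone gave 0, equal totals gave 2, and leaving out each library gave 0 to 4. Roxadustat against PBS in retina RNA gave 0 to 1, and the DMOG difference between tissues 1 with the groups compared alone and 1 to 3 without each library. Reversals were near 0: Acadl gave 0.034 for roxadustat against DMOG in liver RNA with equal totals and -0.016 for the roxadustat difference between tissues with the sex term. Leaving out each library gave, in liver RNA, Acadl -0.064 to 0.011 for DMOG; Ppara -0.083 to 0.045, Acadm -0.099 to 0.027 and Cyp4a14 -0.028 to 0.24 for roxadustat; and Acadm -0.015 to 0.21 and Acadl -0.070 to 0.014 between the drugs. In retina RNA it gave Cpt1a -0.026 to 0.053 for DMOG, Cpt2 -0.057 to 0.035 for roxadustat, and Ppara -0.089 to 0.0093 and Acadl -0.0034 to 0.089 between the drugs. For differences between tissues it gave Acadm -0.16 to 0.068 for DMOG and Acadl -0.019 to 0.11 for roxadustat. The cause was not tested. Replicate numbers showed no clear pairing of the libraries. The mean correlation of same-numbered libraries was 0.03 in liver RNA (-0.33 to 0.55), with 7 of 18 closest to their own number. In retina RNA it was 0.04 (-0.24 to 0.32), with 4 of 18. No chance value was computed for these counts. The replicate block moved the DMOG calls in liver RNA over all genes from 2526 to 2843 with 4 of the 8 genes called. Over all genes, calls in liver RNA moved from 2526 to 1655 (DMOG) and from 530 to 325 (roxadustat) with a filter of 5 FPKM, to 1229 for roxadustat with the groups compared alone, and between the drugs from 379 to 232 with no filter, 78 with the sex term and 62 with the groups compared alone. In retina RNA the groups compared alone gave 94 of 147 (DMOG) and 190 of 323 (roxadustat). Differences between tissues moved from 1763 to 976 (DMOG, filter of 5 FPKM) and from 249 to 394 (no filter), 113 (filter of 5 FPKM) and 490 (groups compared alone) for roxadustat. Leaving out each library gave 1808 to 4486, 348 to 1107, 105 to 2048, 48 to 420, 209 to 482, 128 to 263, 1385 to 3202 and 160 to 527 calls, in the order of DMOG, roxadustat and roxadustat against DMOG in liver RNA, the same in retina RNA, and the differences for DMOG and roxadustat. The highest counts of the liver RNA, and of the differences, came without DMOG replicate 5.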
